A study of Mus musculus with 6 samples.

Results

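Interferon response genes were followed here in lung endothelial cells of mutant and control mice. The set holds 39 genes picked by name as known targets of interferon, out of 23793 rows of the expression table, and each of the 39 had 1 row. Of these, 34 had a mean of at least 1 FPKM over the libraries (a level of fragments corrected for transcript length and library size) and were tested. The other 5, Ifit3, Oas1a, Oas2, Rsad2 and Mx1, lay under that level. The cells were sorted by fluorescence from lungs at postnatal day 7 on a mixed strain background, and gave 3 mutant and 3 control libraries, each group with replicates A, B and C. Libraries of the same letter are called a pair. The sample titles of both groups name Vegfa and Shh, and the series title speaks of Vegfa from the epithelium, but the alleles of either group are not spelled out and whether a library pools several animals is not stated. As background, a Cre recombinase expressed from Shh is a common tool for deleting genes in lung epithelium, so that the endothelial cells themselves keep the gene.

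Interferons are secreted proteins that warn cells of viruses. Type I interferons bind the Ifnar1 and Ifnar2 receptor and act through the kinases Jak1 and Tyk2 on a complex that holds Stat2 and Irf9 and binds interferon-sensitive elements in promoters, while interferon gamma acts through Ifngr1 and Ifngr2. Endothelium carries both receptors, and even without infection it keeps many of the targets at a low level.

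The libraries had relative depths, read from the spacing of the lowest FPKM values, of 0.94 to 1.49 for the mutants and 0.897 to 1.29 for the controls, with control A as 1, while the number of fragments is not known. Vegfa was at 80.5, 99.2 and 65.1 FPKM in mutants A to C and at 73.5, 89.1 and 80.1 FPKM in controls A to C, which in sorted endothelial cells does not check the labels. The endothelial label held: all 10 endothelial markers passed the filter, and their summed level was 5708 to 6394 FPKM in mutant and 7050 to 7824 FPKM in control libraries. The mutant mean was lower for 6 of the 10 and higher for 4. Cldn5 had the widest difference in FPKM, with means of 1069 in mutants and 2190 in controls. The 12 leukocyte markers summed to 6.74 to 46.9 FPKM in mutant and 10.9 to 61.6 FPKM in control libraries, with a lower mutant mean for 10 of the 12. S100a8 was at 0 in mutant C and control C and Cd52 at 0 in mutant C. The 8 mesenchymal markers summed to 221 to 917 FPKM in mutant and 308 to 922 FPKM in control libraries, the 7 epithelial markers to 28.05 to 66.2 and 54.9 to 179 FPKM, and the 4 erythroid markers to 27.8 to 75.0 and 69.8 to 266 FPKM in mutant and control libraries. Markers of capillary cells with high Car4, 7 genes, summed to 98.4 to 217 FPKM in mutant and 719 to 796 FPKM in control libraries, with a lower mutant mean for all 7. Pair C lacked Xist (0.071 FPKM in mutant C and 0.0924 FPKM in control C), which stood at 33.3 to 57.9 FPKM in pairs A and B, so the sex of pair C and its letter cannot be told apart.

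No interferon response gene passed the test between mutant and control endothelium. Over all 11693 rows tested, limma with Benjamini-Hochberg adjustment called 0.137% at an adjusted p under 0.05, and among the 34 interferon response genes it called 0, with adjusted p between 0.593 and 0.988. At an unadjusted p under 0.05, 2 of the 34, Cmpk2 and Lgals3bp, were lower in the mutant, where 4.29% of all rows were, and 1, Iigp1, was higher, where 3.81% of all rows were. These counts are close to those shares, and under the alternatives they ran from 0 to 2 lower and from 0 to 3 higher. With the replicate block 1 was lower and 1 higher, beside 6.88% and 5.39% of all rows in that fit. Among the 34, the count of lower genes was 0 without control A, without mutant A, in pairs B and C only and with no filter on low values. Outside the 34, Oas2 was lower in the fit with no filter, at a limma unadjusted p of 0.0106. The median log2 fold change (mutant over control, on the log2(FPKM + 1) scale) was 0.03 over the 34 genes and 0.02 over all rows tested, and single genes ranged from -0.86 for Lgals3bp to 0.84 for Iigp1. A value above 0 was found for 22 of the 34 and a value below 0 for 12. The median was 0.18 without control A, -0.05 without mutant C and -0.06 without control C, so its sign rested on single libraries. The SE of a gene's log2 fold change had a median of 0.23 among the 34 and of 0.15 among all rows. Differences of that size were not detectable here, and larger ones could also be missed. Iigp1 at 0.84 ± 0.32 and Lgals3bp at -0.86 ± 0.36 (SE) did not pass.

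**Figure D1:**
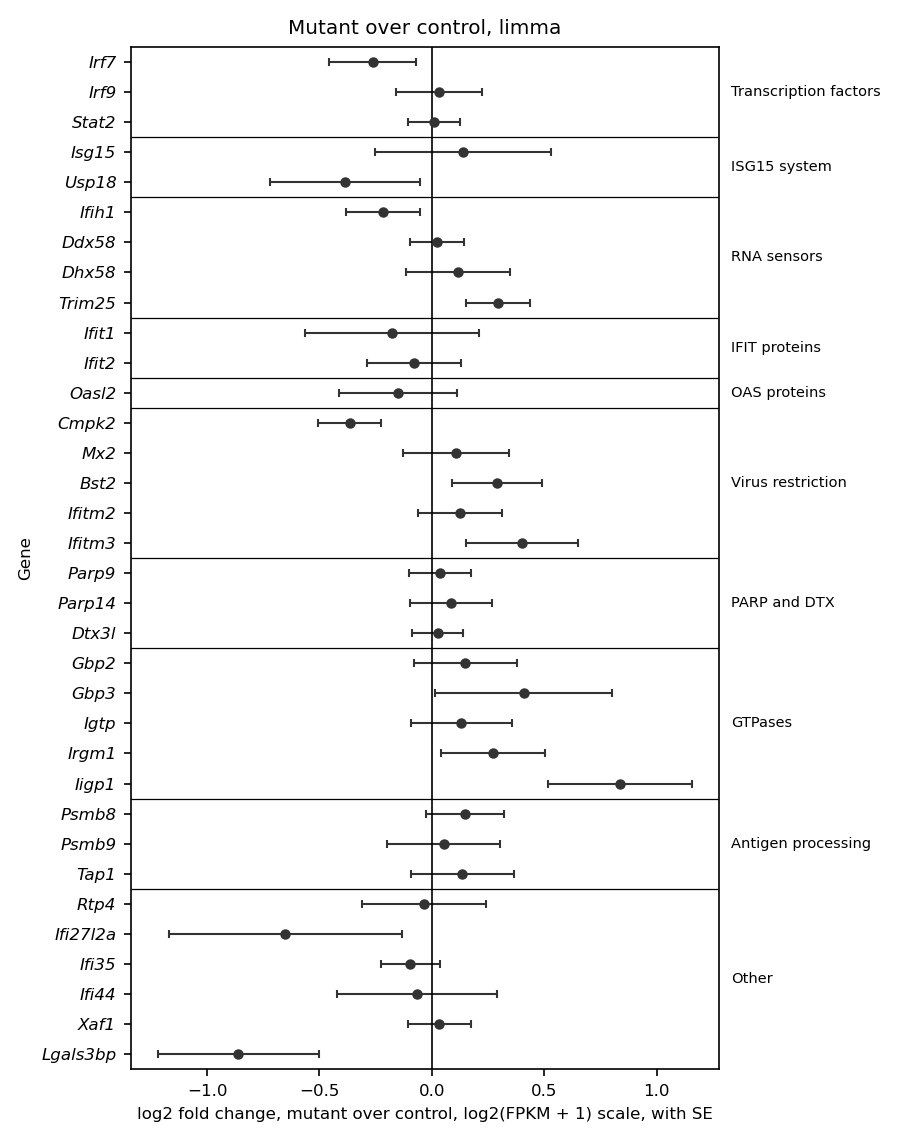
Log2 fold change of the 34 interferon response genes, mutant over control, on the log2(FPKM + 1) scale; points are limma estimates, bars the SE, and horizontal lines part the roles. Values run from -0.86 for Lgals3bp to 0.84 for Iigp1, and 0 of the 34 passed the adjusted threshold.

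Interferon acts on its targets through short promoter elements, and about as many of these genes showed the type I element near the start site as did not. Of the 39 genes, 29 had a window in the RefSeq promoter table (build GRCm38.p6), which covers 250 bases before and 50 after a start site. The core of the interferon-sensitive response element, 2 copies of GAAA with any 2 bases between them, was searched on both strands, so also as TTTC with the same spacing. It was found in the windows of 15 of the 29, against 3.44% of all 32851 windows and 3.99% of all 27025 genes in the table. These 15 were Bst2, Ddx58, Gbp2, Gbp3, Ifih1, Ifit1, Ifit3, Ifitm2, Ifitm3, Igtp, Irgm1, Isg15, Oas1a, Rsad2 and Stat2. The longer form, with a C after the second GAAA, was in the windows of 12 of the 29, against 0.819% of all windows and 0.944% of all genes. The gamma-activated motif TTCNNNGAA, equal to its own reverse complement, was in the windows of 7 of the 29, against 8.30% of all windows and 9.55% of all genes. A copy of TTCNNNGAA can overlap a copy of the element. The windows below stand for the roles that follow: a ubiquitin-like modifier, an RNA-binding protein, 2 neighbouring membrane proteins, a tether of virus particles and a GTPase, with the window of Psmb9, which holds no match, as contrast. Each is written from 5′ to 3′ on the strand of its gene, and capitals mark the bases covered by a match to the element on either strand.
Isg15, chr4:156200769-156201068, minus strand: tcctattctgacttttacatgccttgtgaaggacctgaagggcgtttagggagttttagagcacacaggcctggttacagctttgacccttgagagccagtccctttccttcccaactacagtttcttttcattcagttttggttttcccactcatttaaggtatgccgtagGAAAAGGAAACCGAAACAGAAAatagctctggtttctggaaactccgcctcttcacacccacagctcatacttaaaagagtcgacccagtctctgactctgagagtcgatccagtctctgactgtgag
Ifit1, chr19:34640639-34640938, plus strand: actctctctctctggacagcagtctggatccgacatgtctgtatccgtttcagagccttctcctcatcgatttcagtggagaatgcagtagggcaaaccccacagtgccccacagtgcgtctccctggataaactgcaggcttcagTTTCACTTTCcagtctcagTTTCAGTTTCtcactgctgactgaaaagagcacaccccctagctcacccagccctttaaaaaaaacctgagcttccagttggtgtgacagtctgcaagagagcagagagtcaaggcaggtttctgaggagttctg
Ifitm2, chr7:140955912-140956211, minus strand: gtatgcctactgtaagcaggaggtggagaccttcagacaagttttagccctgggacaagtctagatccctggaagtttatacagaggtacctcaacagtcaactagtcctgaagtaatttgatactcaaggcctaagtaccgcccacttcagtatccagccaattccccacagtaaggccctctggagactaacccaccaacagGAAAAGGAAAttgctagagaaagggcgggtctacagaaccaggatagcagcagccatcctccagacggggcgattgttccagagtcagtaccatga
Ifitm3, chr7:141010695-141010994, minus strand: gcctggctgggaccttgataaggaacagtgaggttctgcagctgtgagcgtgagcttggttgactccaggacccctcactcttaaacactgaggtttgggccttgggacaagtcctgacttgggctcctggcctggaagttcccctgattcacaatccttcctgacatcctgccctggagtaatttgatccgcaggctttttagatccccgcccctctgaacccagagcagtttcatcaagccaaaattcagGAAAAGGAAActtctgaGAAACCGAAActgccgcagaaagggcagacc
Bst2, chr8:71537423-71537722, minus strand: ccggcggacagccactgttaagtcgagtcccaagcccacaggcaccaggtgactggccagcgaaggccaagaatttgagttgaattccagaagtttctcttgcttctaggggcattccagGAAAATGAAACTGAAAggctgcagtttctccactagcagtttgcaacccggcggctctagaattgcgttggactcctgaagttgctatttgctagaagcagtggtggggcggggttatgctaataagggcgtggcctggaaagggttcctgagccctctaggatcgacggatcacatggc
Irgm1, chr11:48871371-48871670, minus strand: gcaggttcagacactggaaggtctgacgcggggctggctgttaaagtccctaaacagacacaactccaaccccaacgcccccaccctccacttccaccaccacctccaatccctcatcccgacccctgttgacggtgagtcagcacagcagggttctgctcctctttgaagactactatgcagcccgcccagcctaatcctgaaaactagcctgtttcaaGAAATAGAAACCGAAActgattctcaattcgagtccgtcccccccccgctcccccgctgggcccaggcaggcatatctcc
Psmb9, chr17:34187281-34187580, minus strand: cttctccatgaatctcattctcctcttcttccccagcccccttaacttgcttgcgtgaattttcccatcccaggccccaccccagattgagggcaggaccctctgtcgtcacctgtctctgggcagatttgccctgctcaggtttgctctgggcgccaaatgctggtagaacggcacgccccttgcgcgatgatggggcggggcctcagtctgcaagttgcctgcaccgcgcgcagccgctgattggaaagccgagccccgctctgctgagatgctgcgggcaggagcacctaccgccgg
In Isg15 3 overlapping copies start 78, 72 and 66 bases before the start site, and in Ifit1 2 separate copies start 104 and 85 bases before it on the other strand. Irgm1 has 2 overlapping copies at 30 and 24 bases, Bst2 has 2 at 130 and 124 bases, and Ifitm2 has 1 at 46 bases. In Ifitm3 both copies lie after the start site. The Psmb9 window overlaps that of Tap1 (chromosome 17, 34187306 to 34187605), which is transcribed the other way. These matches are descriptions of sequence, and binding was not measured.

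The transcription factors of the response were expressed at moderate levels. Irf7, which drives the amplifying wave of interferon production, had 4.62, 5.54 and 6.24 FPKM in mutants A to C, against 8.48, 7.13 and 4.98 FPKM in controls A to C. The groups overlapped, and the log2 fold change was -0.26 ± 0.19 (SE; limma adjusted p = 0.787), or -0.12 without control A and -0.45 without control C. Irf9, the DNA-binding part of the type I complex (chromosome 14, 55603985 to 55610030, GRCm38), had 17.0, 19.2 and 23.5 FPKM in mutants and 25.3, 17.2 and 16.4 FPKM in controls A to C. Stat2, its partner, had 10.4, 9.82 and 11.5 FPKM in mutants and 11.9, 9.83 and 9.75 FPKM in controls A to C. For both, control A was the highest library and control C the lowest, and the log2 fold changes were 0.03 ± 0.19 and 0.01 ± 0.12 (SE; limma adjusted p = 0.973 and 0.988). That of Stat2 was -0.01 under median-of-ratios rescaling and -0.0033 under quantile normalization.

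The ISG15 system spread widely within both groups. Isg15, a ubiquitin-like protein attached to others in infected cells (chromosome 4, 156199424 to 156200818), had 4.01, 7.98 and 12.1 FPKM in mutants A to C and 10.3, 5.72 and 4.82 FPKM in controls A to C. Mutant C was the highest library and mutant A the lowest, 3.02 times apart, with the controls between them, and the log2 fold change was 0.14 ± 0.39 (SE; limma adjusted p = 0.947). Usp18, the protease that removes Isg15 and damps the type I receptor, was at 2.30 ± 1.08 FPKM in mutants and 3.30 ± 1.49 FPKM in controls (SD, n = 3 each), with mutant A lowest and control A highest.

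Among the sensors of viral RNA, Ddx58 (RIG-I) varied little, at 14.4 ± 0.502 FPKM in mutants and 14.2 ± 2.08 FPKM in controls (SD, n = 3 each). Ifih1 (MDA5) was at 4.93 ± 0.393 FPKM in mutants and 5.98 ± 1.43 FPKM in controls, and Dhx58 (LGP2), which modulates both, at 2.53 ± 0.708 and 2.27 ± 0.739 FPKM in mutants and controls. Ddx58 and Ifih1 were each highest in control A. Trim25, a ubiquitin ligase that activates RIG-I, had 25.8, 21.9 and 31.9 FPKM in mutants A to C, against 22.2, 20.4 and 21.1 FPKM in controls A to C. The mutant library was the higher one in each pair, the groups overlapped, and the log2 fold change of 0.29 ± 0.14 (SE) did not pass (limma adjusted p = 0.665), and was 0.16 without mutant C.

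The IFIT proteins, which bind foreign RNA and lie side by side on chromosome 19 (34550550 to 34650009 from Ifit2 to Ifit1), were unlike in their order of libraries. Ifit1 had 1.11, 1.84 and 2.05 FPKM in mutants A to C and 4.49, 1.43 and 0.996 FPKM in controls A to C. Control A stood apart from the other 5 libraries, and the log2 fold change was -0.18 ± 0.39 (SE; limma adjusted p = 0.929), or 0.26 without control A. Ifit3, under the filter, had 0.623, 0.816 and 0.603 FPKM in mutants and 1.38, 1.05 and 0.308 FPKM in controls A to C, again highest in control A. Ifit2 differed from both: mutant B and control B were its highest libraries, and its means were 2.86 ± 0.865 FPKM in mutants and 3.06 ± 0.735 FPKM in controls (SD, n = 3 each).

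The OAS proteins make or resemble the makers of the messenger that activates RNase L. Oasl2 had 7.57, 12.5 and 10.7 FPKM in mutants A to C, against 16.4, 10.1 and 8.60 FPKM in controls A to C. Mutant A was lowest and control A highest, and the log2 fold change was -0.15 ± 0.26 (SE; limma adjusted p = 0.913). Oas1a and Oas2 lay under the filter, at 0.551 ± 0.253 and 0.138 ± 0.0771 FPKM in mutants and 1.09 ± 0.683 and 0.415 ± 0.143 FPKM in controls (SD, n = 3 each). Oas2 did not overlap between the groups, with 0.0799 to 0.226 FPKM in mutants and 0.322 to 0.579 FPKM in controls, as for 6.57% of the rows above the filter. In the limma fit without a filter its log2 fold change was -0.31, with an unadjusted p of 0.0106 and an adjusted p of 0.559. Oas1a has close copies beside it in the genome, with which it can share reads.

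Genes that restrict viruses included the highest and the lowest levels of the set. Cmpk2, a mitochondrial nucleotide kinase next to Rsad2 on chromosome 12 (26469117 to 26479837), had 4.19, 5.05 and 5.30 FPKM in mutants A to C and 7.63, 5.87 and 6.15 FPKM in controls A to C. All 3 mutants lay under all 3 controls, as for 6.57% of all rows, and the log2 fold change of -0.37 ± 0.14 (SE) did not pass (limma adjusted p = 0.593). Rsad2 (viperin) lay under the filter at 0.296 ± 0.0886 FPKM in mutants and 0.471 ± 0.165 FPKM in controls (SD, n = 3 each). Bst2 (tetherin), which holds budding virus on the membrane, had 119, 142 and 127 FPKM in mutants A to C, against 133, 112 and 78.2 FPKM in controls A to C, and control C was its lowest library (log2 fold change 0.29 ± 0.20, SE; limma adjusted p = 0.767). Without control C the log2 fold change was 0.08, and without control A it was 0.46.

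The membrane proteins Ifitm2 and Ifitm3, which block fusion of virus with endosomes, were the 2 highest genes of the set in FPKM. Ifitm3 (chromosome 7, 141009590 to 141010744) had 491, 356 and 650 FPKM in mutants A to C, against 453, 327 and 334 FPKM in controls A to C. Each mutant was above the control of its letter, mutant C by the widest margin, and the log2 fold change was 0.40 ± 0.25 (SE; limma adjusted p = 0.733), or 0.19 without mutant C and 0.62 without mutant B. Ifitm2 was at 492 ± 79.4 FPKM in mutants and 451 ± 78.9 FPKM in controls (SD, n = 3 each), with differences of 0.10, 0.14 and 0.14 (log2) within pairs A, B and C. In the authors' deposited table Ifitm2 has a p of 0.00811 and a log2 fold change of 0.13, and it is the 1 gene under 0.05 among the 38 of the set with a p there. Of all rows of the authors' deposited table with a p, 7.53% are under 0.05. The authors' p is unadjusted and comes from another test than limma, so the values are not like for like. For Ifitm2 the limma unadjusted p was 0.521, or 0.343 with the replicate block, and the limma adjusted p was 0.898. The limma fit without the block takes no account of the pairs, within which the differences of Ifitm2 were close to each other. Ifitm2 and Ifitm3 belong to a family of similar genes in one cluster, so reads can be shared between them. Mx2, a dynamin-like GTPase, was at 1.09 ± 0.291 FPKM in mutants and 0.966 ± 0.451 FPKM in controls (SD, n = 3 each), and Mx1 was listed at 0 FPKM in mutant A and controls B and C and reached at most 0.0991 FPKM, in mutant B.

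**Figure D2:**
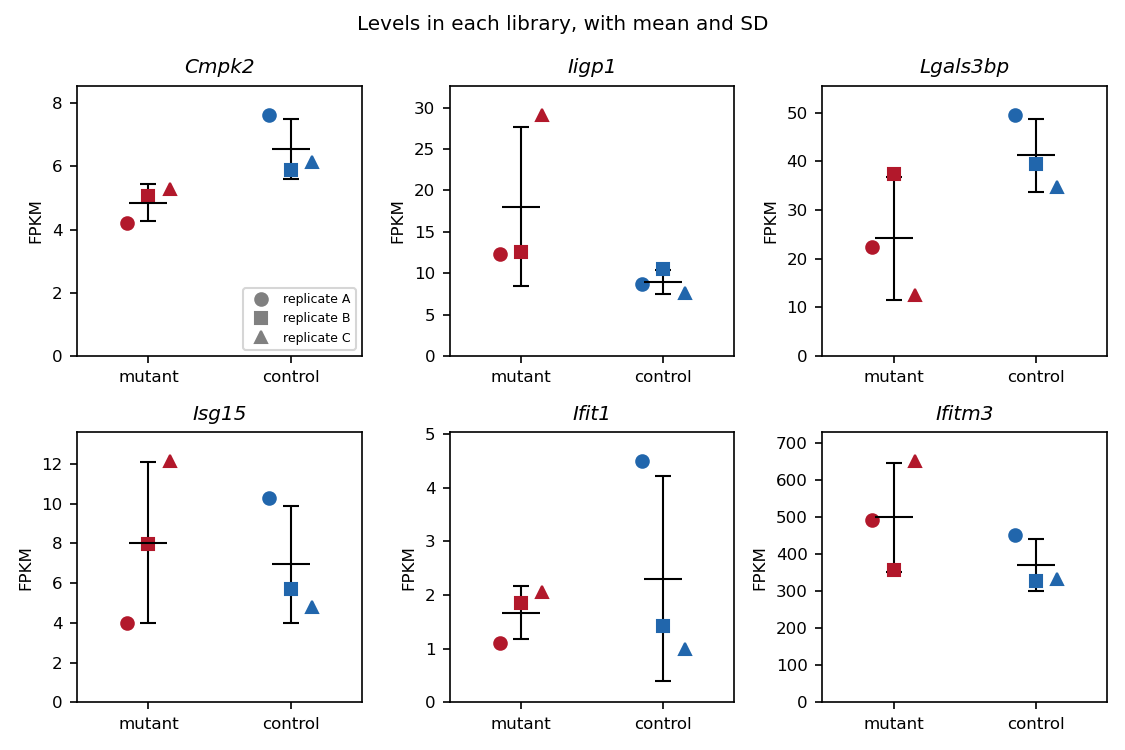
Level in FPKM of 6 interferon response genes in mutant (red, left) and control (blue, right) libraries; symbols give the replicate letter, the horizontal bar the mean and the whiskers the SD (n = 3). Cmpk2 and Iigp1 did not overlap between the groups, while Isg15 and Ifit1 spread within a group as far as between groups.

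Parp9, Parp14 and Dtx3l, which modify proteins with ADP-ribose and ubiquitin, differed little between the groups. Their log2 fold changes were 0.04 ± 0.14, 0.09 ± 0.18 and 0.02 ± 0.11 (SE; limma adjusted p between 0.929 and 0.969). Levels were 10.4 ± 1.24 FPKM for Parp9, 11.3 ± 2.29 FPKM for Parp14 and 8.34 ± 0.947 FPKM for Dtx3l in mutants, against 10.1 ± 1.45, 10.5 ± 1.95 and 8.15 ± 0.399 FPKM in controls (SD, n = 3 each). Dtx3l and Parp9 overlap on chromosome 16 (35926515 to 35939027 and 35938470 to 35972621), and whether strand was used in counting is not stated, so their values are not fully separate.

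The guanylate-binding and immunity-related GTPases, which attack the vacuoles of intracellular pathogens and respond strongly to interferon gamma, had their highest level in mutant C. This held for all 5 of them and for 28.1% of all rows tested. Iigp1 had 12.3, 12.6 and 29.1 FPKM in mutants A to C, against 8.74, 10.5 and 7.56 FPKM in controls A to C. All 3 mutants lay above all 3 controls, as for 7.12% of all rows, and the log2 fold change of 0.84 ± 0.32 (SE) did not pass (limma adjusted p = 0.593; log2 fold change 0.45 without mutant C). Gbp3 had 6.74, 5.88 and 17.99 FPKM in mutants and 8.45, 6.66 and 4.97 FPKM in controls A to C. Mutant C alone lay above the controls, and the log2 fold change turned from 0.41 ± 0.39 (SE; limma adjusted p = 0.834) to -0.05 without it. Igtp (Irgm3) had 6.65, 5.39 and 7.96 FPKM in mutants and 7.92, 6.22 and 4.18 FPKM in controls A to C, and the groups overlapped (log2 fold change 0.13 ± 0.23, SE; limma adjusted p = 0.912). Gbp2 and Irgm1 had 23.4 and 25.7 FPKM in mutant C and no more than 19.2 and 16.7 FPKM in any other library. These GTPases have close relatives, and reads can fall to either.

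The 3 genes of antigen processing, which cut and move peptides for MHC class I and are classical targets of interferon gamma, had the same highest library. Psmb8, an immunoproteasome subunit, had 40.3, 39.7 and 56.3 FPKM in mutants A to C, against 41.4, 46.5 and 34.2 FPKM in controls A to C (log2 fold change 0.15 ± 0.17, SE; limma adjusted p = 0.87). In pairs A and B the mutant was the lower library, and in pair C the higher one. Psmb9 and Tap1, neighbours on chromosome 17 whose promoter windows overlap, behaved likewise, with 36.2 and 34.3 FPKM in mutant C, against 19.7 and 17.8 FPKM in control C.

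Of the remaining 6 genes, Lgals3bp and Ifi27l2a had the largest log2 fold changes, and Ifi27l2a lay near the filter. Lgals3bp, a secreted glycoprotein that binds galectins (chromosome 11, 118392747 to 118401959), had 22.4, 37.5 and 12.5 FPKM in mutants A to C, against 49.6, 39.4 and 34.8 FPKM in controls A to C. Each mutant was below its own control, mutant B was above control C, and the log2 fold change of -0.86 ± 0.36 (SE) did not pass (limma adjusted p = 0.617; -0.48 without mutant C). The summed markers of Car4-high capillary cells were at 149, 217 and 98.4 FPKM in mutants A to C and at 796, 743 and 719 FPKM in controls A to C. Their part in the result for Lgals3bp was not tested. In bulk samples fewer cells of a type and less RNA per cell cannot be told apart. Ifi27l2a, a small mitochondrial protein, had 0.229, 2.24 and 0.152 FPKM in mutants and 3.27, 1.76 and 0.513 FPKM in controls A to C. It ranged 21.4-fold from mutant C to control A, the widest range of the 34 genes, and had a log2 fold change of -0.65 ± 0.52 (SE; limma adjusted p = 0.795). This was -1.43 with a pseudocount of 0.1 and -0.08 in pairs B and C only. Leaving out mutant A, B or C gave -0.43, -1.13 and -0.39, and leaving out control C gave -1.05. Ifi27l2a passed the filter of 1 FPKM through the controls, with means of 0.874 FPKM in mutants and 1.85 FPKM in controls. Without control A it fell under the filter and has no value in that fit.

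The other 4 had log2 fold changes between -0.10 and 0.03. Rtp4, a chaperone of receptors, was at 14.3 ± 4.91 FPKM in mutants and 14.5 ± 4.18 FPKM in controls, and Ifi44 at 2.76 ± 1.43 and 2.97 ± 1.67 FPKM in mutants and controls (SD, n = 3 each). Both were lowest in mutant A. Ifi35 was at 24.1 ± 3.62 FPKM in mutants and 25.6 ± 1.81 FPKM in controls, and Xaf1, a partner of the apoptosis inhibitor XIAP, at 7.22 ± 0.432 FPKM in mutants and 7.10 ± 1.31 FPKM in controls (SD, n = 3 each).

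**Figure D3:**
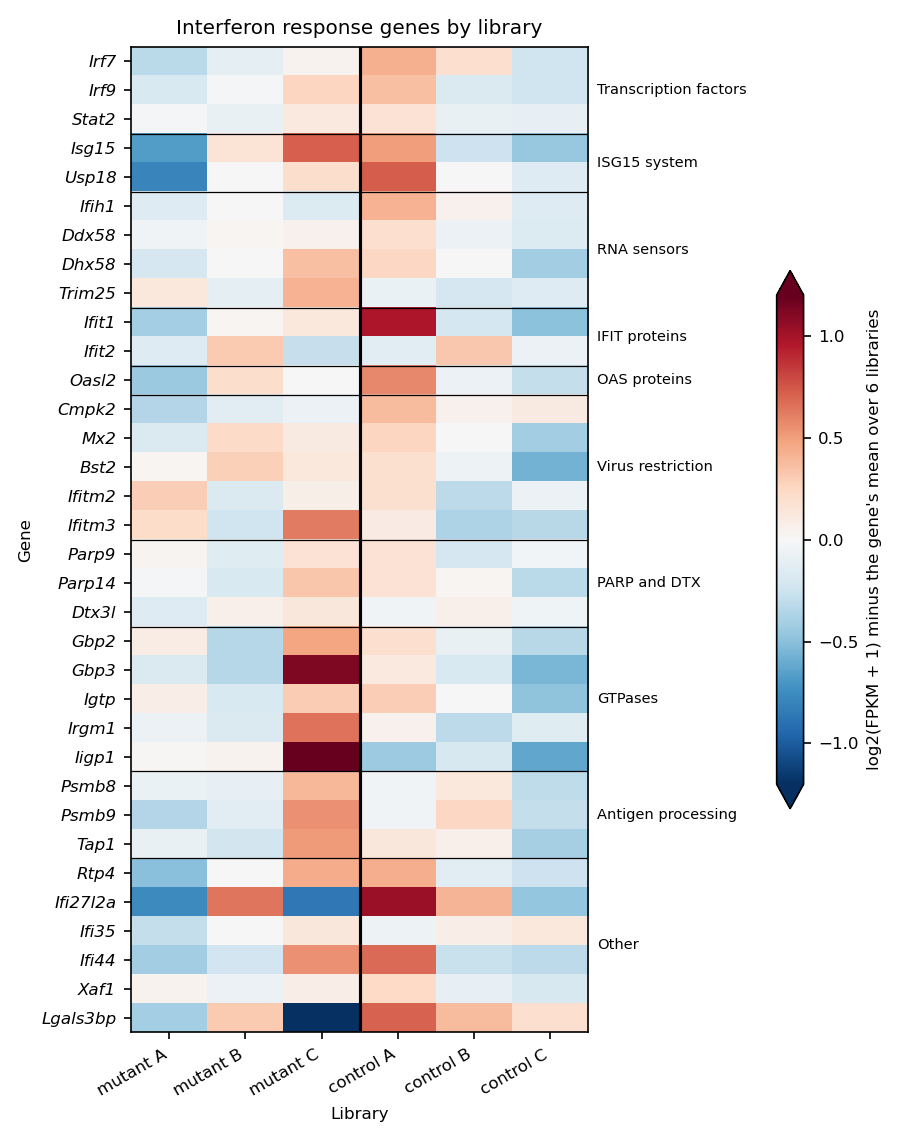
Log2(FPKM + 1) of each interferon response gene in each library minus the gene's mean over the 6 libraries, mutants on the left and controls on the right of the heavy line; colours stop at 1.2 in either direction. Mutant C is the highest library for 16 genes, among them all GTPases and genes of antigen processing, and control A for 15.

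The highest values of the interferon response genes lay mostly in 2 libraries, 1 of each group. Of the 34 genes, 16 were highest in mutant C (28.1% of all rows tested were), 1 in mutant A, 1 in mutant B, 15 in control A (14.6% of all rows), 1 in control B and 0 in control C (12.8% of all rows). The median deviation of the 34 genes from their own means was -0.16, -0.05 and 0.19 (log2) in mutants A to C and 0.20, -0.07 and -0.27 in controls A to C. Over all rows tested these medians lay between -0.06 and 0.04.

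Within pairs the direction turned from one pair to the next. In pair A the mutant was above the control for 4 of the 34 genes, where it was for 49.0% of all rows tested. In pair B it was above for 19 of the 34, beside 52.8% of all rows, and in pair C for 29 of the 34, beside 54.4% of all rows. The median difference, mutant minus control, was -0.23, 0.02 and 0.55 (log2) in pairs A, B and C, and -0.0042, 0.02 and 0.03 over all rows. By role, the medians in pairs A and C were -1.35 and 0.77 for the ISG15 system, -0.54 and 0.27 for the transcription factors, -0.13 and 0.80 for the GTPases and -0.22 and 0.84 for antigen processing. With 1 library of each group in a pair, these within-pair differences have no replicate check. Trim25, Ifitm2, Ifitm3 and Iigp1 were higher in the mutant in all 3 pairs, 4 of the 34, beside 19.6% of all rows. Ifih1, Ifit2, Cmpk2 and Lgals3bp were lower in all 3 pairs, 4 of the 34, beside 17.2% of all rows.

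**Figure D4:**
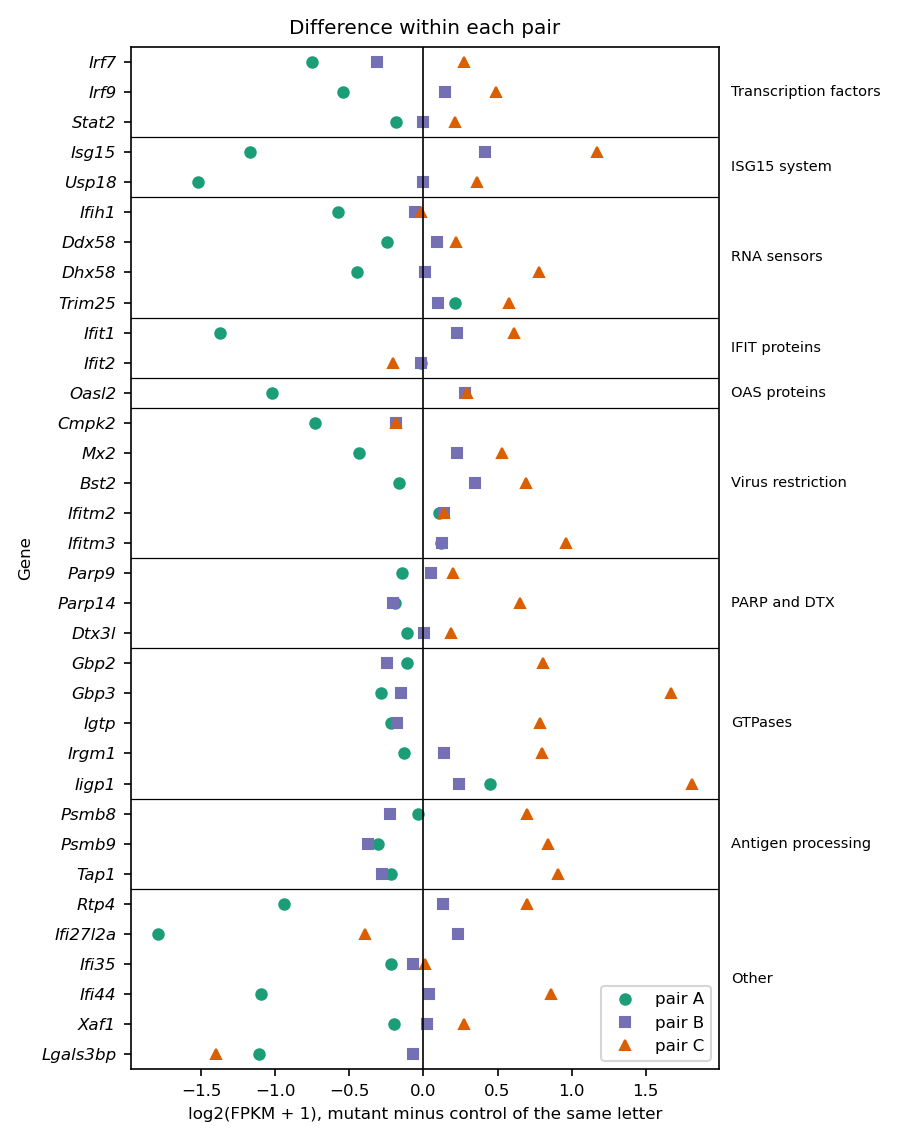
Difference in log2(FPKM + 1), mutant minus control of the same letter, for each interferon response gene; circles are pair A, squares pair B and triangles pair C. Circles lie left of 0 for 30 of the 34 genes and triangles right of 0 for 29.

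The summed level of the leukocyte markers was 46.9, 14.6 and 6.74 FPKM in mutants A to C and 28.2, 61.6 and 10.9 FPKM in controls A to C. Their part in the pattern of the interferon response genes was not tested. Ptprc, the pan-leukocyte antigen CD45, was at 0.06 to 0.469 FPKM in mutants and at 0.071 to 1.18 FPKM in controls. The description labels have one prefix for pair A and another for pairs B and C, whose meaning is not stated. With only pairs B and C in the fit (4 libraries), 0 of the 34 genes passed and their median log2 fold change was 0.26, against 0.02 over all rows in the same fit; pair A alone allows no test.

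Of 45 listed gene names of interferon signalling outside the set, 43 had a row, and Cgas and Sting1 had none under those names. Of the 43, 27 passed the filter and were tested. By role, the tested genes were 0 of 9 ligands, 5 of 6 receptors, 9 of 10 kinases and signal factors, 7 of 11 sensors and adaptors and 6 of 7 inhibitors. The 9 interferon genes listed, among them Ifnb1 and Ifng, were listed at 0 FPKM in every library. Limma called 0 of the 27 with all libraries, and at an unadjusted p under 0.05 it gave 1 higher (Jak1) and 0 lower, where 3.81% and 4.29% of all rows were. With the replicate block, limma gave 3 higher (Jak1, Ifnar1 and Tmem173) and 1 lower (Mavs) at an unadjusted p under 0.05, beside 5.39% and 6.88% of all rows in that fit, and again called 0 after adjustment. Their median log2 fold change was 0.02, as over all rows.

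Receptors stood well above the filter. Ifnar1 had 42.8, 34.4 and 51.5 FPKM in mutants A to C, against 34.7, 32.2 and 38.4 FPKM in controls A to C, and Ifnar2 was at 57.7 ± 7.67 FPKM in mutants and 48.0 ± 4.51 FPKM in controls (SD, n = 3 each). The log2 fold changes were 0.27 ± 0.16 and 0.25 ± 0.13 (SE; limma adjusted p = 0.717 and 0.683), and that of Ifnar1 was 0.13 without mutant C and 0.41 without mutant B. Ifngr1 was at 84.3 ± 11.7 FPKM in mutants and 91.5 ± 15.7 FPKM in controls (SD, n = 3 each). The receptor chain of type III interferon, Ifnlr1, was at no more than 0.0843 FPKM in any library.

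Among the kinases and adaptors, Jak1 had 67.2, 61.5 and 72.3 FPKM in mutants A to C, against 59.5, 54.9 and 55.7 FPKM in controls A to C, without overlap of the groups, as for 7.12% of all rows (log2 fold change 0.24 ± 0.10, SE; limma adjusted p = 0.617). Tmem173 (STING), the adaptor of DNA sensing, had 11.0, 9.98 and 18.8 FPKM in mutants and 9.59, 6.83 and 8.61 FPKM in controls A to C. It too did not overlap, which makes 2 of the 27, a share near that of all rows. Mutant C was its highest library, and the log2 fold change was 0.57 ± 0.24 (SE; limma adjusted p = 0.619), or 0.31 without mutant C. Mavs, the adaptor of RIG-I and MDA5, was at 9.56 ± 1.48 FPKM in mutants and 12.3 ± 2.14 FPKM in controls (SD, n = 3 each), lower in the mutant of each pair (log2 fold change -0.33 ± 0.17, SE; limma adjusted p = 0.678; -0.20 without mutant A). Irf8 was at 3.57 ± 1.03 FPKM in mutants and 2.35 ± 0.811 FPKM in controls (SD, n = 3 each; limma adjusted p = 0.696). Irf1, a transcription factor induced by interferon gamma, was highest in mutant C at 159 FPKM, against 75.9 FPKM in control C.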

How the data were processed

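RNA of sorted lung endothelial cells was sequenced as 76 nt paired reads after mRNA isolation, per the labels' protocols. Per the submitters' processing notes, reads were aligned to mm10 with TopHat2 2.0.14 and Bowtie2 2.2.3 and processed with Cufflinks 2.2.1 and Cuffdiff. The authors deposited FPKM values per gene and library, with a log2 fold change and an unadjusted p-value beside them. The column header does not name the test behind that p-value. FPKM holds no counts, so precision rests on the replicates. Strand use and annotation are not given in the sources used here.

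Rows averaging 1 FPKM or more were tested with limma 3.58.1 in R 4.3.3 on log2(FPKM + 1), which understates changes of low genes, with a variance trend and Benjamini-Hochberg adjustment over 11693 rows. In simulated data with the spread of these libraries, 200 rows drawn from all rows tested were changed. The fit recovered 51% of log2 changes of 1 and 91% of log2 changes of 2, with 3 and 8 false calls. The share for the 34 genes alone was not measured. It may be lower, as their median SE was 0.23 against 0.15 over all rows. Relative depth came from rows under 0.1 FPKM. Genes are named by rule: every member, with values per library for 11 fixed genes, the 6 of lowest p and the 4 of largest change. The members and lists were chosen with earlier results of these data known. Irf1, Ifngr1 and Ifnlr1 were named after their values were seen.

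Deviations from group means correlated between libraries of one letter at 0.361 (A), 0.268 (B) and 0.191 (C), above the threshold of 0.1. Between unlike letters the correlations were -0.271 to 0.0613. The letters were therefore read as pairs, though pair A shares a label prefix and pair C the lack of Xist. The SE and adjusted p of each gene are from the fit without the replicate block unless stated. With the block the SE was 0.098 against 0.157 for Ifnar1, and 0.44 against 0.39 for Isg15. The labels do not say that replicates are separate animals, so p-values cover only how far these samples spread. The alternatives changed the pseudocount, the filter, the scaling or the variance model, added the replicate block or a term for the label prefix, summed repeated symbols, used pairs B and C only, or left out a library.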

Additional observations from a re-analysis of the deposited data

How the results depend on the processing

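Under all 15 alternative fits 0 of the 34 interferon response genes and 0 of the 27 other pathway genes passed; the smallest adjusted p of a member was 0.593 in the main fit and 0.268 to 0.971 in the alternatives (0.354 with the replicate block). Of 507 log2 fold changes of members under alternatives, 461 kept their sign and 46 turned, in 23 genes, none of them called; the 6 named pathway genes kept theirs. Over all rows the count of called genes was 16, against 6 with the replicate block, 6 in pairs B and C only and 6 to 10 with 1 library left out. The members' median log2 fold change was 0.26 in pairs B and C only, and -0.06 to 0.18 with 1 library left out. In pairs B and C only, the log2 fold change was 0.18 for Usp18, 0.42 for Ifit1, 0.29 for Oasl2, 0.42 for Rtp4 and 0.45 for Ifi44. That of Stat2 was -0.010 with median-of-ratios rescaling and -0.0033 with quantile normalization. With 1 library left out, the log2 fold change ran from -0.054 to 0.13 for Ddx58, -0.066 to 0.27 for Dhx58, -0.035 to 0.11 for Dtx3l, -0.052 to 0.36 for Gbp2, -0.051 to 0.68 for Gbp3, -0.19 to 0.023 for Ifi35, -0.36 to 0.26 for Ifi44, -0.47 to 0.26 for Ifit1, -0.26 to 0.064 for Ifit2, -0.080 to 0.31 for Igtp, -0.089 to 0.22 for Irf9, -0.18 to 0.51 for Isg15, -0.075 to 0.22 for Mx2, -0.33 to 0.10 for Oasl2, -0.059 to 0.20 for Parp14, -0.054 to 0.13 for Parp9, -0.014 to 0.25 for Psmb8, -0.21 to 0.24 for Psmb9, -0.27 to 0.21 for Rtp4, -0.048 to 0.096 for Stat2, -0.087 to 0.28 for Tap1 and -0.056 to 0.16 for Xaf1. The motif TTCNNNGAA was in the windows of 7 members. The cause of these differences was not tested. With 3 libraries a group, no fragment counts and a median SE of 0.23, small changes cannot be resolved.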
